A study of Arabidopsis thaliana with 8 samples.

Results

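The probe sets described here report genes of membrane transporter families, found by gene symbol among the probe sets of the ATH1 array, on which each probe set reads the 3' part of an Arabidopsis thaliana transcript. Symbols beginning with any of 19 family names were searched in the platform's annotation and in the RefSeq gene table. They covered ABC transporters, nitrate (NRT), ammonium (AMT), phosphate (PHT), sucrose and sugar (SUC, STP), metal (ZIP), potassium (HKT, KUP) and purine (PUP) carriers, aquaporins (PIP1, PIP2, TIP, NIP), cation channels (CNGC, GLR), calcium exchangers (CAX), oligopeptide carriers (OPT) and amino acid exporters (UMAMIT). Only probe sets naming 1 gene were taken, which gave 12 of the 22746 probe sets without controls. Of these, 8 belong to the glutamate receptor-like (GLR) family, 2 to the ZIP family and 1 each to the NRT and PUP families. The other 15 families had no member among the probe sets naming 1 gene. The annotation table used here has no entry for 8730 probe sets, and 503 name several genes, of which 2 carry a family symbol (GLR and PUP). The gene table itself holds 342 protein-coding genes with such symbols, so the 12 are a small part of these families, and nothing here speaks for aquaporins, ABC transporters or sugar carriers.

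The series measured total RNA of dark-grown seedlings of the Columbia accession in 4 genotypes with 2 arrays each, 8 in total. These were the wild type (WT), seedlings lacking phytochrome A (allele phyA-211, written phyA), seedlings lacking phytochrome B (allele phyB-9, written phyB) and the double mutant with both alleles (phyAphyB). Seeds of all 4 were chilled for 5 days at 6 degrees C on 0.8% agar, given 1 h of white light, and kept for 3 days in darkness at 22 degrees C. Each mutation is represented by 1 allele, and the labels leave unsaid whether the 2 arrays per genotype stem from separate cultures, so the p-values rest on a spread between arrays that may be technical. The first phyA array carries no number in its title and is called replicate 1.

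Phytochromes are photoreceptors by which plants sense red and far-red light, and phytochrome A is the form that accumulates in darkness. GLR proteins are plant relatives of the ionotropic glutamate receptors of animals and form cation channels opened by amino acids. They fall into 3 clades, numbered in the gene names, and carry calcium signals in wounding, immunity and pollen tube growth. ZIP proteins import zinc and other divalent metals, NRT2 proteins take up nitrate at low supply, and purine permeases move purines such as adenine and cytokinins. A dark-grown seedling lives on seed reserves while its hypocotyl elongates.

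Before the members, some measures of the arrays bear on their values. The signal of the GAPDH control at its 3' end over that at its 5' end rises with RNA degradation. WT replicate 1 had a ratio of 16.7 and phyB replicate 2 one of 7.87, while the remaining 6 arrays had 1.31 to 2.31. The same ratio of the actin control also set WT replicate 1 apart, at 46.7, but not phyB replicate 2, whose 7.5 lay within the 3.64 to 10.8 of the others. Neither PHYA nor PHYB had a named probe set, so the genotypes were not checked on the mutated genes. Of 7 marker genes written for dark-grown seedlings only PORB, a protochlorophyllide reductase, had a probe set, at intensities of 34265 to 63901, and none of 5 light-grown leaf markers had one. Of 6 root markers and 6 seed markers 1 each had a probe set, and of 3 pollen markers 1, AGL66, at 102 to 370. The root marker PYK10 stood at 66582 to 120174. The seed storage gene PAP85 stood at 4743 and 5802 in WT, 4426 and 8835 in phyA, 12256 and 24718 in phyB and 14111 and 20201 in phyAphyB. Its log2 change was 1.72 in phyB (limma adjusted p = 0.70) and 1.68 in phyAphyB (limma adjusted p = 0.997), so neither was called. The part of these array and marker measures in the results below was not tested.

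No transporter probe set passed the test in any comparison. Changes are on the log2(intensity + 39) scale, where 39 is a pseudocount, the 10th percentile of all values. Probe sets among the dimmest 40% by mean log2 value were left out before testing. This left 4 of the 12 members, GLR1.4, GLR3.3, GLR3.6 and ZIP6, among 13647 probe sets. limma called 0 of the 4 at an adjusted p under 0.05 in phyA against WT, where 0.0147% of all tested probe sets were called, in phyB against WT (0%) and in phyAphyB against WT (0.022%). It also called 0 of the 4 for phyA-211 averaged over both PHYB backgrounds (0.0366% of all), for phyB-9 averaged over both PHYA backgrounds (0.0147%), for the interaction of the alleles (0%) and for any difference among the 4 genotypes by the F test (0.0147%). At an unadjusted p under 0.05 the count was again 0 of 4 in each of these comparisons, against 2.22% to 6.37% of all tested probe sets. In whole seedlings, fewer cells of a type and less RNA per cell cannot be told apart.

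**Figure D1:**
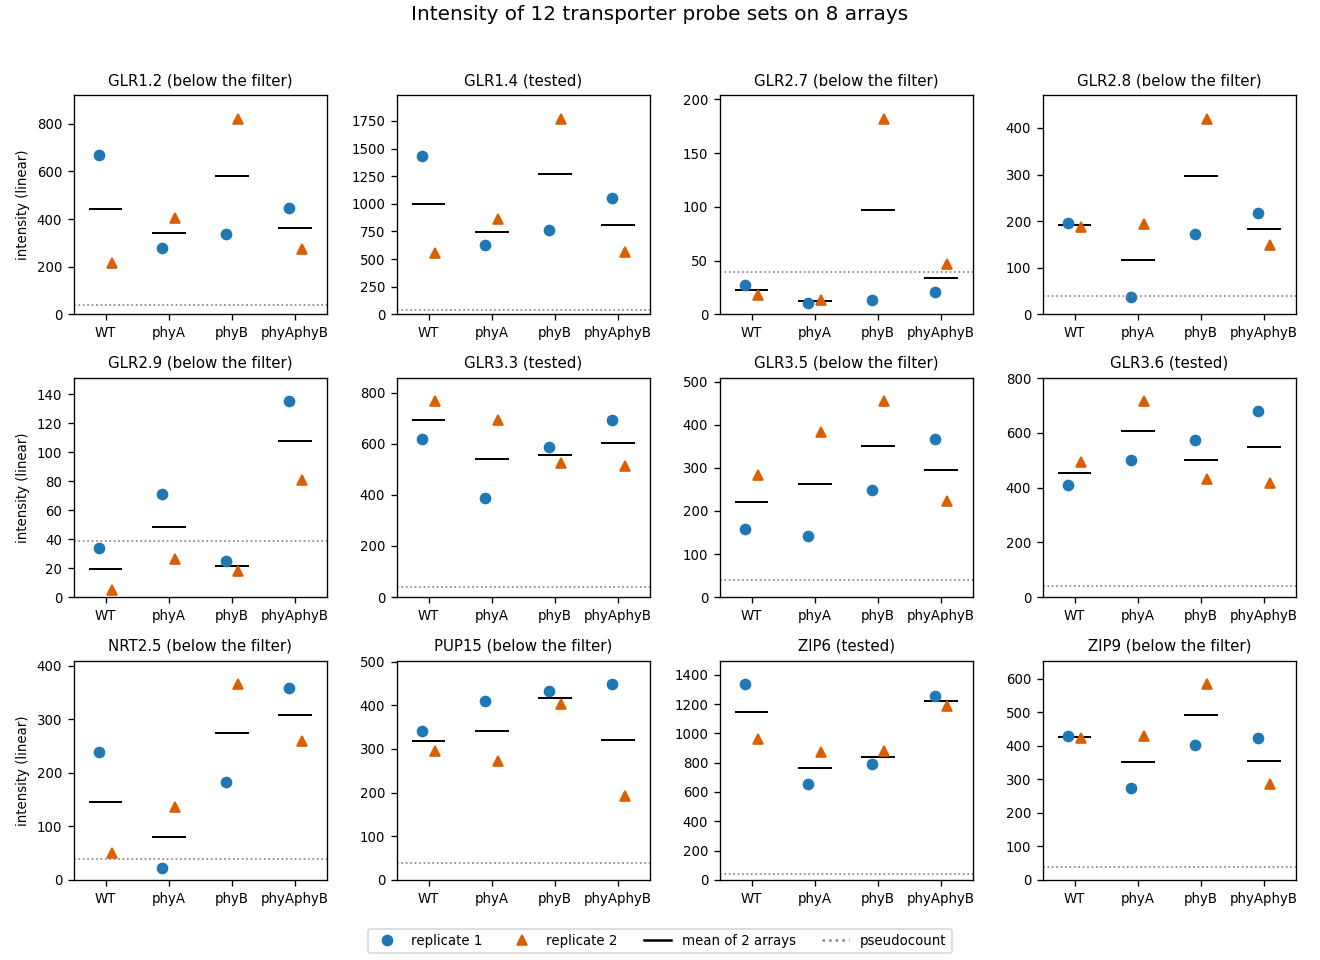
Linear intensity (vertical axes, a scale of its own in each panel) of the 12 transporter probe sets in the 4 genotypes (horizontal axes); circles are replicate 1, triangles replicate 2, black bars the mean of both arrays and the dotted line the pseudocount of 39. The ZIP6 arrays of phyA and phyB lie below both WT arrays, and the GLR2.9 and NRT2.5 arrays of phyAphyB above both.

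Of the metal carriers, ZIP6 (AT2G30080) was lower in both single mutants and not in the double mutant by its array values, without passing the test. Its intensity was 1335 and 962 in the WT arrays, 652 and 876 in phyA, 793 and 880 in phyB, and 1252 and 1185 in phyAphyB. All 4 single-mutant arrays thus lay below both WT arrays, and both double-mutant arrays lay between them. The log2 change was -0.56 in phyA (SE 0.38, 95% interval -1.41 to 0.29, limma adjusted p = 0.81). It was -0.42 in phyB (SE 0.38, 95% interval -1.27 to 0.43, limma adjusted p = 0.92). In phyAphyB it was 0.10 (SE 0.38, 95% interval -0.75 to 0.95, limma adjusted p = 1.0), and it was -0.033 with quantile normalization. Its interaction, the double-mutant change minus both single-mutant changes, was 1.08 (SE 0.54, 95% interval -0.12 to 2.29, limma adjusted p = 1.0), and its p ranked 698 among the 13647 probe sets. Within arrays of the same replicate number the phyA difference from WT was -0.99 for number 1 and -0.13 for number 2, and the phyB difference -0.72 and -0.12. The difference from WT replicate 1, the array with the GAPDH ratio of 16.7, was thus the larger in both single mutants. Without that array the change was -0.33 in phyA and -0.20 in phyB.

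ZIP9 (AT4G33020), a carrier gene induced by zinc shortage, had intensities of 431 and 423 in WT, 273 and 430 in phyA, 402 and 584 in phyB, and 425 and 285 in phyAphyB. The WT arrays were nearly equal, and each mutant had an array beside or above them, so no mutant separated from WT. It fell under the filter and was not tested. The pattern of ZIP6, lower in both single mutants, was not present in ZIP9.

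Among the 8 GLR channels, GLR3.3 (AT1G42540) and GLR3.6 (AT3G51480) of clade 3 differed least between arrays of the same genotype, by 0.41 and 0.44 log2 units on average. They are channels required for the spread of wound-induced electrical signals between leaves. GLR3.3 had intensities of 618 and 765 in WT, 387 and 691 in phyA, 587 and 523 in phyB, and 692 and 512 in phyAphyB. Both phyB arrays lay below both WT arrays, and the arrays of phyA and phyAphyB overlapped those of WT. The log2 change of GLR3.3 was -0.38 in phyA (SE 0.44, limma adjusted p = 0.90), -0.29 in phyB (SE 0.44, adjusted p = 0.96) and -0.20 in phyAphyB (SE 0.44, adjusted p = 1.0). GLR3.6 had intensities of 410 and 495 in WT, 501 and 715 in phyA, 574 and 431 in phyB, and 681 and 416 in phyAphyB. Only the phyA arrays lay both above WT, and the lower of them exceeded the higher WT array by a margin smaller than the gap between the WT arrays. Its log2 change was 0.38 in phyA (SE 0.45, limma adjusted p = 0.90), 0.13 in phyB (SE 0.45, adjusted p = 0.98) and 0.23 in phyAphyB (SE 0.45, adjusted p = 1.0). The 95% intervals of GLR3.3 ran from -1.36 to 0.60 in phyA, from -1.27 to 0.69 in phyB and from -1.18 to 0.79 in phyAphyB. Those of GLR3.6 ran from -0.62 to 1.38, from -0.87 to 1.13 and from -0.77 to 1.22 in the same order. With 2 arrays per genotype, each of these intervals was wide and included 0. The intervals are not adjusted for the number of probe sets tested, so they set no size above which a change would be called. The larger change of the seed marker PAP85 in phyB, 1.72 (SE 0.45), was not called either (limma adjusted p = 0.70).

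GLR3.5 (AT2G32390), a channel found in mitochondria and plastids, fell under the filter. Its intensities were 157 and 284 in WT, 141 and 383 in phyA, 249 and 454 in phyB, and 366 and 222 in phyAphyB. The arrays of every mutant overlapped those of WT, and replicate 2 minus replicate 1 was 0.72 log2 units for WT, 1.23 for phyA, 0.78 for phyB and -0.63 for phyAphyB.

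**Figure D2:**
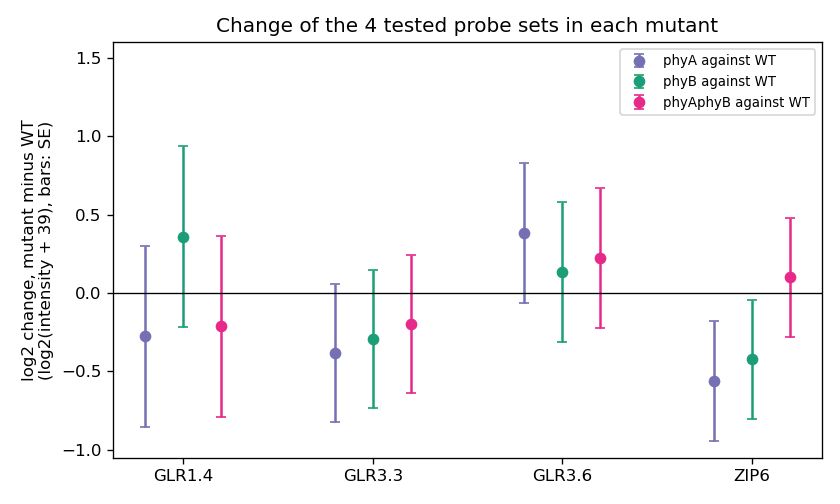
Log2 change (vertical axis, mutant minus WT on the log2(intensity + 39) scale) of the 4 tested probe sets in phyA, phyB and phyAphyB; points are limma estimates from 8 arrays and bars their SE. Changes lie between -0.56 (ZIP6 in phyA) and 0.38 (GLR3.6 in phyA), and the bars of GLR1.4 are the longest, at 0.58.

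The clade 1 channels GLR1.2 (AT5G48400) and GLR1.4 (AT3G07520) differed more between arrays of the same genotype, by 0.94 and 0.95 log2 units on average, than between the highest and lowest genotype means, 0.60 and 0.64 apart. GLR1.2 is a channel of pollen tubes, and GLR1.4 a channel opened by methionine. GLR1.4 had intensities of 1433 and 558 in WT, 626 and 861 in phyA, 761 and 1770 in phyB, and 1054 and 560 in phyAphyB. GLR1.2 had 668 and 216 in WT, 280 and 404 in phyA, 338 and 821 in phyB, and 447 and 274 in phyAphyB. In both genes the highest arrays were phyB replicate 2 and WT replicate 1, the pair with the high GAPDH ratios of 7.87 and 16.7, though the actin ratio was high in WT replicate 1 alone. The same pair was highest in ZIP9, so in 3 of 12 members, against 9.20% of all probe sets without controls. This pattern was noticed after the values were seen, and the part of RNA quality in it was not tested. The log2 change of GLR1.4 was -0.28 in phyA (SE 0.58, limma adjusted p = 0.96), 0.36 in phyB (SE 0.58, adjusted p = 0.96) and -0.21 in phyAphyB (SE 0.58, adjusted p = 1.0). Without both arrays the 3 changes were 0.37, 0.42 and 0.44 (limma adjusted p = 1.0, 0.94 and 1.0). Over all 16 alternatives the adjusted p for GLR1.4 ran from 0.57 to 1.0 in phyA, from 0.83 to 1.0 in phyB and from 0.65 to 1.0 in phyAphyB.

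The clade 2 channels GLR2.7 (AT2G29120), GLR2.8 (AT2G29110) and GLR2.9 (AT2G29100) are known for a part in calcium influx during immune responses, and their genes lie side by side in the TAIR10.1 gene table with no other protein-coding gene between neighbours. All 3 fell under the filter. GLR2.7 had intensities of 27 and 18 in WT, 11 and 13 in phyA, 13 and 182 in phyB, and 21 and 47 in phyAphyB. It was at or under the pseudocount of 39 in 6 of 8 arrays, and only phyB replicate 2 stood well above it. GLR2.8 had 195 and 188 in WT, 38 and 194 in phyA, 173 and 420 in phyB, and 217 and 149 in phyAphyB. Its WT arrays were nearly equal, while the lowest and the highest values belonged to phyA replicate 1 and phyB replicate 2, and no mutant separated from WT.

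GLR2.9 was brightest in the double mutant, at 135 and 81, against 34 and 5 in WT, 71 and 26 in phyA, and 25 and 18 in phyB. Both double-mutant arrays exceeded the other 6, and 5 arrays, all of WT and phyB and 1 of phyA, were at or under the pseudocount. No fold is given, because both WT values lay under it. GLR2.9 thus differed in its pattern from its neighbours, whose highest array was phyB replicate 2. At these intensities only 6.31% of probe sets had a lower mean over the 8 arrays.

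NRT2.5 (AT1G12940), a high-affinity nitrate transporter gene induced by nitrogen starvation, had the widest range of genotype means, 1.72 log2 units. Its intensities were 239 and 51 in WT, 23 and 136 in phyA, 183 and 365 in phyB, and 358 and 259 in phyAphyB. The lowest genotype mean was that of phyA, and its value of 23 lay under the pseudocount. The range of 1.72 is therefore no firm size of a difference. Both phyAphyB arrays lay above both WT arrays, while those of phyA and phyB overlapped WT. All 4 arrays carrying phyB-9 were at 183 or above and 3 of the other 4 at 136 or below, the exception being WT replicate 1 at 239. Arrays of 1 genotype differed by 1.1 log2 units on average, and by 1.63 in WT. It was under the filter and not tested.

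PUP15 (AT1G75470), of the purine permease family, had intensities of 341 and 296 in WT, 410 and 273 in phyA, 433 and 402 in phyB, and 448 and 193 in phyAphyB. Both phyB arrays lay above both WT arrays, and the 2 double-mutant arrays held the highest and the lowest value of the 8. It was under the filter and not tested.

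**Figure D3:**
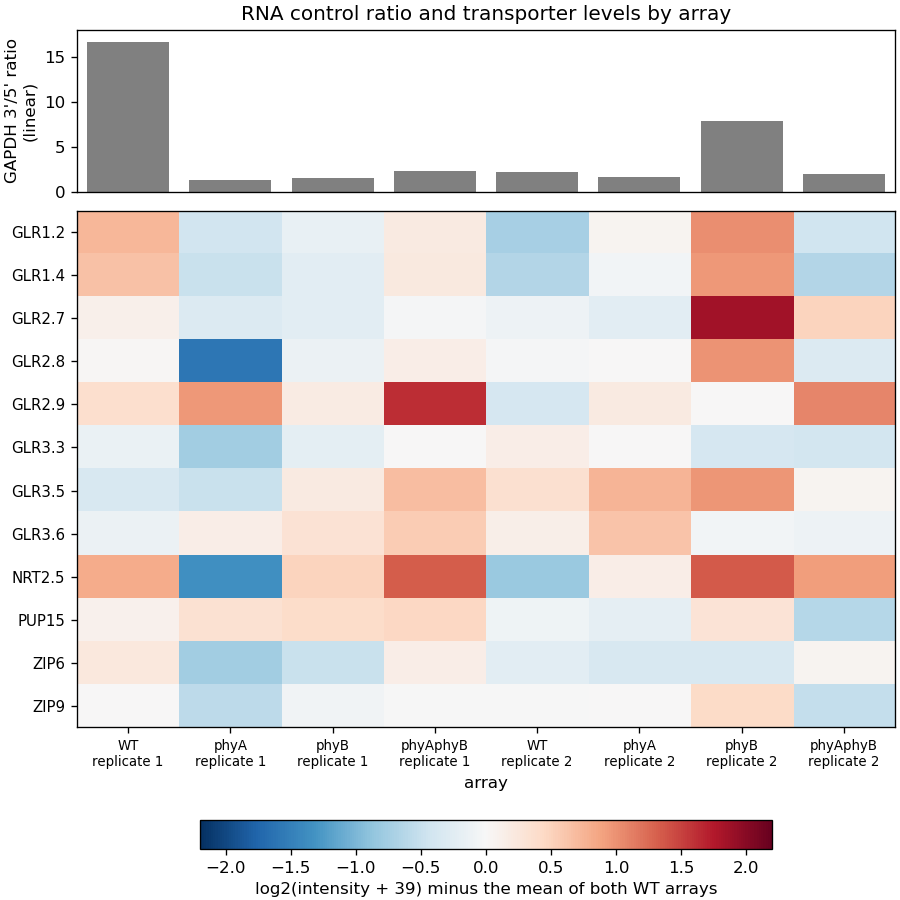
Upper panel, the GAPDH 3'/5' ratio (linear) of each array; lower panel, the log2(intensity + 39) of each of the 12 transporter probe sets minus the mean of both WT arrays (colour scale in log2 units), with replicate 1 arrays at the left and replicate 2 arrays at the right. The phyB replicate 2 column holds the most high values and phyA replicate 1 the most low ones, while GLR2.9 is highest in both phyAphyB arrays. Both WT values of GLR2.7 and of GLR2.9 lay under the pseudocount of 39, so their colours give no size of change.

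Taking all 12 members by the order of their arrays, both phyA arrays lay above both WT arrays in 1 member (GLR3.6), against 16.8% of all 22746 probe sets, and below both in 2 (GLR2.7 and ZIP6), against 15.5%. Both phyB arrays lay above WT in 1 member (PUP15; 16.5% of all) and below in 2 (GLR3.3 and ZIP6; 15.4% of all). Both phyAphyB arrays lay above WT in 2 (GLR2.9 and NRT2.5; 16.9% of all) and below in 0 (12.6% of all). These shares of the members lie near those of all probe sets. The 3 comparisons share the WT arrays.

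The spread between genotypes was set beside that between arrays of the same genotype. The range of the 4 genotype means exceeded the mean difference within a genotype in 6 of 12 members (50%), near the 59.4% of all probe sets. A range over 4 means and an average of differences between 2 arrays are unlike measures, so the count is no test. Those 6 were GLR2.7, GLR2.8, GLR2.9, NRT2.5, ZIP6 and ZIP9. The phyB replicate 2 array held the highest value in 7 of 12 members, against 21.7% of all probe sets, and phyA replicate 1 the lowest in 7 of 12, against 20.0%. Among the 8 members under the filter the first count was 6, against 32.3% of all probe sets under it, and the second 5, against 24.8%. Both arrays were singled out after the values were seen, as the most extreme among the members, so these counts are no test. With the WT average set to 0, the median over the 12 members was 0.68 log2 units in phyB replicate 2 and -0.49 in phyA replicate 1, and from -0.20 to 0.21 in the other 6. Over all probe sets these medians were 0.10, -0.15 and -0.08 to 0.18.

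The 4 tested members had a median log2 change of -0.33 in phyA (1 positive, 3 negative), -0.08 in phyB (2 positive, 2 negative) and -0.05 in phyAphyB (2 positive, 2 negative), beside -0.01, -0.06 and 0.04 over all tested probe sets. For the 3 tested GLR genes the medians were -0.28, 0.13 and -0.20. Without WT replicate 1 the GLR medians were 0.26, 0.0074 and 0.10, and without WT replicate 2, when 4 GLR genes passed the filter, they were -0.57, -0.22 and -0.45, so their sign differed with the WT array used. It also turned without some mutant arrays: the median was 0.0064 in phyA without phyA replicate 1, -0.059 and -0.22 in phyB without phyB replicate 1 or 2, and 0.22 in phyAphyB without phyAphyB replicate 2.

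The other genes of membrane transport that could be tested showed no called change either. Lists named proton pumps, further carriers and channels, auxin carriers and regulators, but few of these genes had a named probe set. There was one for 3 of 45 names of membrane energization (VHA-A1, VHA-A2 and VHA-A3) and for 15 of 151 further solute transporters. None of 17 auxin carriers had one, so nothing here speaks for them. In all, 14 genes were tested: 3 of membrane energization, 10 further solute transporters and 1 regulator. None was called by limma in any mutant against WT (smallest adjusted p = 0.76). VHA-A3, a vacuolar proton pump subunit that energizes many tonoplast carriers, had intensities of 7647 and 13584 in WT, 24280 and 21359 in phyA, 23486 and 11938 in phyB, and 20853 and 17293 in phyAphyB. Its log2 change was 1.16 in phyA (SE 0.41, limma adjusted p = 0.76), 0.71 in phyB (SE 0.41, adjusted p = 0.87) and 0.90 in phyAphyB (SE 0.41, adjusted p = 1.0), and its lowest values were those of WT replicate 1 and phyB replicate 2, the arrays of high GAPDH ratio. VHA-A2 changed by -0.03 in phyA, -0.33 in phyB and 0.26 in phyAphyB, and VHA-A1 by 0.60, -0.55 and 0.45. The positive change of VHA-A3 in every mutant was thus not shared by these subunits. SWEET2, a vacuolar sugar transporter, stood at 604 and 1950 in WT and 2240 and 3375 in phyA, a change of 1.30 (SE 0.54, limma adjusted p = 0.76). It stood at 1309 and 2005 in phyB, a change of 0.55, and at 1588 and 2218 in phyAphyB, a change of 0.76. The lowest SWEET2 value was that of WT replicate 1, an array of high GAPDH ratio. In phyB the higher value, 2005, was that of replicate 2, the other array of high GAPDH ratio. The part of RNA quality in these values was not tested. The 10 solute transporters had median changes of -0.01 in phyA, 0.06 in phyB and -0.001 in phyAphyB. For the 3 genes of membrane energization the medians were 0.60, -0.33 and 0.45 in the same order.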

How the data were processed

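Total RNA of 8 seedling samples was hybridised to ATH1 arrays, labelled as Affymetrix instructs per the labels' protocols. The authors deposited whole-number intensities on a linear scale, 1 per probe set and array; the sources used here do not give the summarising software. Their 2% trimmed means were 2500.2 to 2500.3, so the authors' values had been scaled, and no further normalization was applied, which leaves differences in the shape of the distributions in place. Intensities plus 39 were taken to log2, the 64 controls left out, and a mean per genotype fitted to all 8 arrays with limma 3.58.1 in R 4.3.3 (lmFit, contrasts.fit, eBayes with trend, two-sided, Benjamini-Hochberg over 13647 probe sets). The script was tested on simulated data. With 2 arrays per genotype, the number of arrays limits the precision, and the values carry no detection call used here.

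Names come from the platform's annotation, joined by Entrez number to RefSeq's TAIR10.1 table, where 13436 of 13513 probe sets naming 1 gene were found. All 12 members have the plain _at suffix, while 2 probe sets naming several family genes (GLR2.2 with GLR2.3, and PUP18 with a neighbour) were left out. No coordinates are given, since the sources used here name no build for the probe sets, and no sequences, since no sequence table was used here. Members, lists and tests were chosen with earlier results of these data known. By rule, named genes were called members, the 4 largest rises and falls per mutant without overlap with WT, the 8 smallest F test p and the smallest per family; members under the filter are described by intensity. Alternatives were other pseudocounts (1, 100), filters (none, 60%), quantile normalization, median centring, no trend, a replicate block, only the groups compared, and arrays left out.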

Additional observations from a re-analysis of the deposited data

How the results depend on the processing

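The count of called members was 0 in all 7 comparisons and stayed 0 in all 115 recomputed counts, among them those with a replicate block (0 called; ZIP6 in phyA -0.56, adjusted p = 0.51). The numbers were not taken to pair the arrays: deviations of same-numbered arrays correlated at -0.078 to 0.42 between genotypes, and 1 phyA title has no number. With 60% of probe sets left out no member remained, so nothing could be computed. With no filter all 12 members were tested and limma called 0. At an unadjusted p under 0.05 there were then GLR2.9 in phyAphyB against WT and for phyA-211 averaged, higher in both, with sizes not given since all WT and phyB arrays lay under the pseudocount, and NRT2.5 for phyB-9 averaged (1.32), each with a limma adjusted p of 0.97 to 1.0, beside 2.69% to 3.42% of all probe sets in those comparisons. The 1.32 of NRT2.5 is no firm size either, since phyA replicate 1 lay under the pseudocount in that gene. The median change of tested members in phyB was 0.36 with no filter, where it covers 12 members in place of 4. Without 1 array, the median in phyA ran from -0.79 (without WT replicate 2, when 5 members passed the filter) to -0.026. Without 1 array, GLR1.4 ran from -0.93 to 0.37 in phyA, from -0.29 to 1.01 in phyB and from -0.86 to 0.44 in phyAphyB, GLR3.3 from -0.77 to 0.0064 in phyA and from -0.40 to 0.0083 in phyAphyB, GLR3.6 from -0.059 to 0.32 in phyB and from -0.11 to 0.56 in phyAphyB, and ZIP6 from -0.13 to 0.33 in phyAphyB. Without both arrays of high GAPDH ratio GLR1.4 was 0.37 in phyA and 0.44 in phyAphyB. ZIP6 in phyAphyB was -0.033 with quantile normalization and -0.024 with median centring. The cause of these sign changes was not tested. None of the 192 recomputed changes was called (smallest adjusted p = 0.51).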
